A study of Mus musculus with 8 samples.

Results

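Immediate early genes are switched on within minutes of synaptic activity, from signalling proteins already present in the neuron. The set described here holds 36 genes known as immediate early or activity-regulated, not all of them fast, out of 21368 genes named on the array. They were chosen by name, with earlier results of these data known, so counts over the set are a description with no test. By role they are 17 fast transcription factors, 4 other transcription factors, 9 feedback and growth regulators and 6 synaptic and signalling effectors. Of the 36, 34 were bright enough to be among the 16618 genes tested. The remaining pair were the transcription factor gene Egr3, well above background on 1 Control and 1 Hydroxyurea array, and Zfp36, which encodes an RNA-binding protein that speeds mRNA decay and cleared background on 0 Control arrays and 1 Hydroxyurea array.

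The study measured hippocampal RNA of 8 female mice on 1-colour Agilent arrays, 1 mouse per array. All mice were nontransgenic littermates of APPswe695/PSEN1dE9 animals on a C57BL/6J background, so no group carried a transgene. The Control group was 4 untreated mice of 19 weeks. The Hydroxyurea group was 4 mice that drank hydroxyurea, an inhibitor of ribonucleotide reductase, in their water (45 mg/kg/day over 10 weeks); mice 1 and 2 were 24 weeks old at the end and mice 3 and 4 were 19 weeks old. No Control mouse was 24 weeks old. Cages were shared, and which mice shared one is not given in the labels.

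The fast transcription factors bind DNA soon after a stimulus and turn on later genes, among them effectors that act at synapses. In the hippocampus their RNA is known to climb with new experience, learning and seizures and to drop again quickly, helped by feedback genes that shut the signal off. CREB and serum response factor (SRF), proteins that neurons hold in advance, sit on cAMP response elements and CArG boxes in many of these promoters.

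The promoters show what the family shares in sequence, and 6 are printed here. Nr4a1 and Srf are shown because their RNA, by the brightest probe of each gene, followed that of Arc across mice, and Nr4a2 because it did not. Fos and Npas4 are the classic activity markers, and Dusp1 holds a complete cAMP response element. Each is the 250 bases before the start site from RefSeq on GRCm38.p6, read 5′ to 3′ on the gene's strand. Capitals mark a match on either strand to the short cAMP response element TGACG, the complete element TGACGTCA (which contains the short one), the EGR element GCGNGGGCG or the CArG box.
Fos, chr12:85473640-85473889, plus strand: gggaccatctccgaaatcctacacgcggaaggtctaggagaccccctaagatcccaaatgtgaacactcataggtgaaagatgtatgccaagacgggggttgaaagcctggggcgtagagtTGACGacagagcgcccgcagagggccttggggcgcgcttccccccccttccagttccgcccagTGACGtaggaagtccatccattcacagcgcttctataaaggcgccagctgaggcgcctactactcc
Npas4, chr19:4989972-4990221, minus strand: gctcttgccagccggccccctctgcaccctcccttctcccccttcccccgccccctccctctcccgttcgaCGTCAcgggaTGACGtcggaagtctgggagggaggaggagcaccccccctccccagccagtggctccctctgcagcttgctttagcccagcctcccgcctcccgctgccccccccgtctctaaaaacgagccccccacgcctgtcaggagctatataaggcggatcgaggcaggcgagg
Nr4a1, chr15:101266596-101266845, plus strand: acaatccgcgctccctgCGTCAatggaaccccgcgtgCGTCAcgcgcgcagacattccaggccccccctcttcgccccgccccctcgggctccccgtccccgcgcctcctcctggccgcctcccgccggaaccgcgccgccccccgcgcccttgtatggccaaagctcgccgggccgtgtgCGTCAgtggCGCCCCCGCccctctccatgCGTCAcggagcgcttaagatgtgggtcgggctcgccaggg
Nr4a2, chr2:57124004-57124253, minus strand: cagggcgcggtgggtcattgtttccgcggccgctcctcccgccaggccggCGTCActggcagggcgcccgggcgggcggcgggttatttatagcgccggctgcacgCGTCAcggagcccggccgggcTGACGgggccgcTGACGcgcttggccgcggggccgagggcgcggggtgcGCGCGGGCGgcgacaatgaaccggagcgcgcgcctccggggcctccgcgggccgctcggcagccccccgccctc
Srf, chr17:46556163-46556412, minus strand: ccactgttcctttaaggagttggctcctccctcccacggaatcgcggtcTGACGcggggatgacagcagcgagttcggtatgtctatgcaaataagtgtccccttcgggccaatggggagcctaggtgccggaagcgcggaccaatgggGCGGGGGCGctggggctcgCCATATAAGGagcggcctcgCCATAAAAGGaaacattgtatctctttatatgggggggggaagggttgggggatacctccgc
Dusp1, chr17:26508473-26508722, minus strand: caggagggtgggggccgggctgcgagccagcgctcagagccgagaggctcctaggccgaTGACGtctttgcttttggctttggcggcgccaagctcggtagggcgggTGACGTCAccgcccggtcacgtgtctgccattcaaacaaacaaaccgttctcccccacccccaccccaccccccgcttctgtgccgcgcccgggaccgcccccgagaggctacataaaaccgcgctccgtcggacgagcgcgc
In the Fos window the short element began 129 and 66 bases before the start, and in the Srf window the CArG boxes began 82 and 62 bases before it.

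A promoter was found for 29 of the 36 genes. Those of Egr1, Egr3, Crem, Ier2, Sik1, Arc and Nptx2 were not matched. TGACG was present in 19 of the 29 (65.5%), against 19.8% of 27025 genes and 27.2% of the 13170 tested genes with a promoter. The complete element TGACGTCA was found in 3, Btg2, Dusp1 and Maff (10.3%), against 2.73% of tested genes. The EGR element, bound by Egr1 and its relatives, was in 12 (41.4%) against 9.26%. CArG boxes were in 3, Egr2, Srf and Zfp36 (10.3%), against 1.5%. The AP-1 element TGANTCA, bound by FOS and JUN dimers, was in Csrnp1 alone (3.45%) against 6.14%. The promoters of the set had a median GC content of 64.8%, against 58.4% for tested genes, which bears on how often GC-rich letters are met. A match is a description of letters, and no binding was measured.

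Arrays were of uneven quality. The signal at the 75th percentile ran from 1677 to 2417 in Control mice and from 1680 to 2162 in Hydroxyurea mice 1, 3 and 4, but was 1052 in Hydroxyurea 2. Replicate spots on Control 1 varied by 12.9%, against 3.72% to 4.44% on the other arrays. Hippocampal RNA was present as labelled: all 10 dentate gyrus, 7 of 8 CA1 and 6 of 8 CA3 markers were tested, and all of these were well above background on every array. All arrays lay on 1 slide with the Control group in 1 row and the Hydroxyurea group in another, so row and group cannot be told apart.

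Values below are log2 signals relative to the array's own 75th percentile, so a value of 0 equals that percentile. A fold change is the Hydroxyurea mean minus the Control mean on this log2 scale, ± its standard error, with n = 4 mice per group and a p-value from limma with Benjamini-Hochberg adjustment over all 16618 genes. These levels depend on each probe, and only differences within a gene are compared. In bulk tissue, fewer cells of a type and less RNA per cell cannot be told apart.

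Most of the set had lower values in the Hydroxyurea mice, by small amounts, and no gene passed the adjusted test. The fold change was below 0 for 28 of 34 genes (82.4%), against 51.2% of all genes tested, with a median of -0.16 against -0.0037 for all genes. Limma called 0 of the 34 at an adjusted p of 0.05, as it called 0% of all genes tested, and the smallest adjusted p in the set was 0.465. At an unadjusted p under 0.05, 7 of 34 were lower (Tiparp, Arc, Nfil3, Klf4, Crem, Egr1 and Nr4a1), against 6.34% of all genes, and 0 were higher, against 3.53%. The groups did not overlap, with Hydroxyurea below Control, in 4 genes (Klf4, Crem, Nfil3 and Tiparp), against 5.1% of all genes. No member lay wholly above, against 2.39% of all genes. The 6 with higher values were Nr4a2 (0.20), Jund (0.19), Sik1 (0.12), Nptx2 (0.06), Fosb (0.06) and Egr4 (0.01). The signs of Fosb, Egr4 and Nptx2 turn when arrays are centred on their median, which lowers all genes to a median of -0.09, and 31 of the 34 were then lower against 70.3% of all genes.

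**Figure D1:**
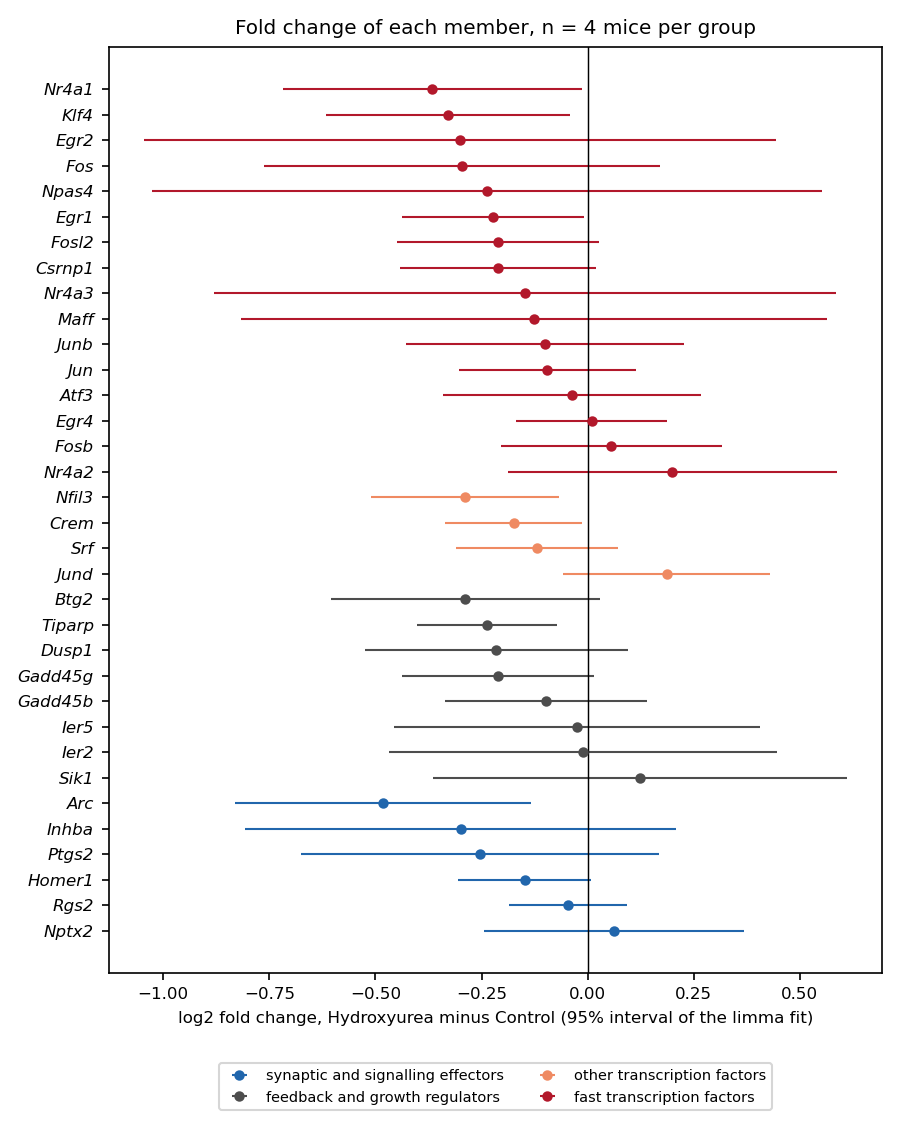
Log2 fold change of each of the 34 tested genes (x axis, Hydroxyurea minus Control), grouped by role and ordered within it. Points are limma estimates from 4 mice per group and bars are 95% intervals; 28 points lie left of 0 and those of Egr2, Npas4, Nr4a3 and Maff have wide intervals.

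Among fast transcription factors, 13 of 16 had lower values, with a median fold change of -0.18. Fos, the founding member of the AP-1 family, was -0.13, -0.38, 0.33 and -0.08 in Control mice 1 to 4 and -0.87, -0.17, -0.11 and -0.29 in Hydroxyurea mice 1 to 4. Hydroxyurea 1 was the lowest of all mice and Control 3 the highest, and the other 6 overlapped. The fold change was -0.30 ± 0.20 (adjusted p = 0.635); without Hydroxyurea 1 it was -0.13 and without Control 3 it was -0.17. Egr1, a zinc finger factor with high constitutive expression in forebrain neurons, was 3.68, 3.45, 3.58 and 3.83 in Control mice and 3.27, 3.49, 3.44 and 3.44 in Hydroxyurea mice. Only Hydroxyurea 2 reached the Control range, and the fold change was -0.22 ± 0.09 (adjusted p = 0.498). Nr4a1, an orphan nuclear receptor, was 4.74, 4.59, 4.46 and 4.66 in Control mice and 3.84, 4.59, 4.34 and 4.23 in Hydroxyurea mice. Hydroxyurea 2 again sat among the Control mice and Hydroxyurea 1 was far below all others. Its fold change was -0.37 ± 0.15 (adjusted p = 0.499), or -0.23 without Hydroxyurea 1.

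Klf4, a Krüppel-like factor, had values of 0.16, 0.09, 0.28 and 0.07 in Control mice. They were -0.01, 0.07, -0.29 and -0.47 in Hydroxyurea mice, below the Control mice throughout, though Hydroxyurea 2 and Control 4 differ by less than the second decimal. The fold change was -0.33 ± 0.12 (adjusted p = 0.491). Junb, a JUN-family partner of FOS, was -2.80, -3.17, -3.46 and -3.34 in Control mice and -3.37, -3.12, -3.35 and -3.33 in Hydroxyurea mice. Control 1 was highest and the groups overlapped, with a fold change of -0.10 ± 0.14, which became 0.03 without Control 1.

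The transcription factors that differed most between mice of one group were Npas4, Egr2, Nr4a3 and Maff. Npas4, a neuron-specific factor driven by calcium entry, was 0.63, 0.89, 1.57 and 1.12 in Control mice and 1.32, 1.32, -0.10 and 0.72 in Hydroxyurea mice. Its lowest mouse, Hydroxyurea 3, was over 1 log2 unit below mice 1 and 2 of its own group. The within-group SD of 0.55 ranked at the 94.3 percentile of all tested genes, and the fold change was -0.24 ± 0.34, or 0.07 without Hydroxyurea 3. Egr2, an EGR1 relative, was -2.01, -1.78, -0.76 and -1.29 in Control mice and -2.47, -1.40, -1.49 and -1.68 in Hydroxyurea mice. The extremes were the same mice as for Fos, Control 3 high and Hydroxyurea 1 low, with a fold change of -0.30 ± 0.32 that was -0.07 when either was left out.

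Nr4a3, a second nuclear receptor of the NR4A family, was dim: -5.59, -5.04, -5.99 and -5.18 in Control mice and -5.94, -4.99, -5.23 and -6.23 in Hydroxyurea mice, well above background on 4 Control arrays and 1 Hydroxyurea array. The groups overlapped fully, and the fold change of -0.15 ± 0.32 ran from -0.35 to 0.06 when single mice were left out. Maff, a small MAF factor, was -4.64, -4.16, -3.18 and -4.15 in Control mice and -4.19, -4.52, -4.12 and -3.80 in Hydroxyurea mice, with Control 3 highest. Its fold change was -0.13 ± 0.30, or 0.16 without Control 3. Across the set, the median within-group SD was 0.202 log2 units, against 0.153 for all genes tested.

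**Figure D2:**
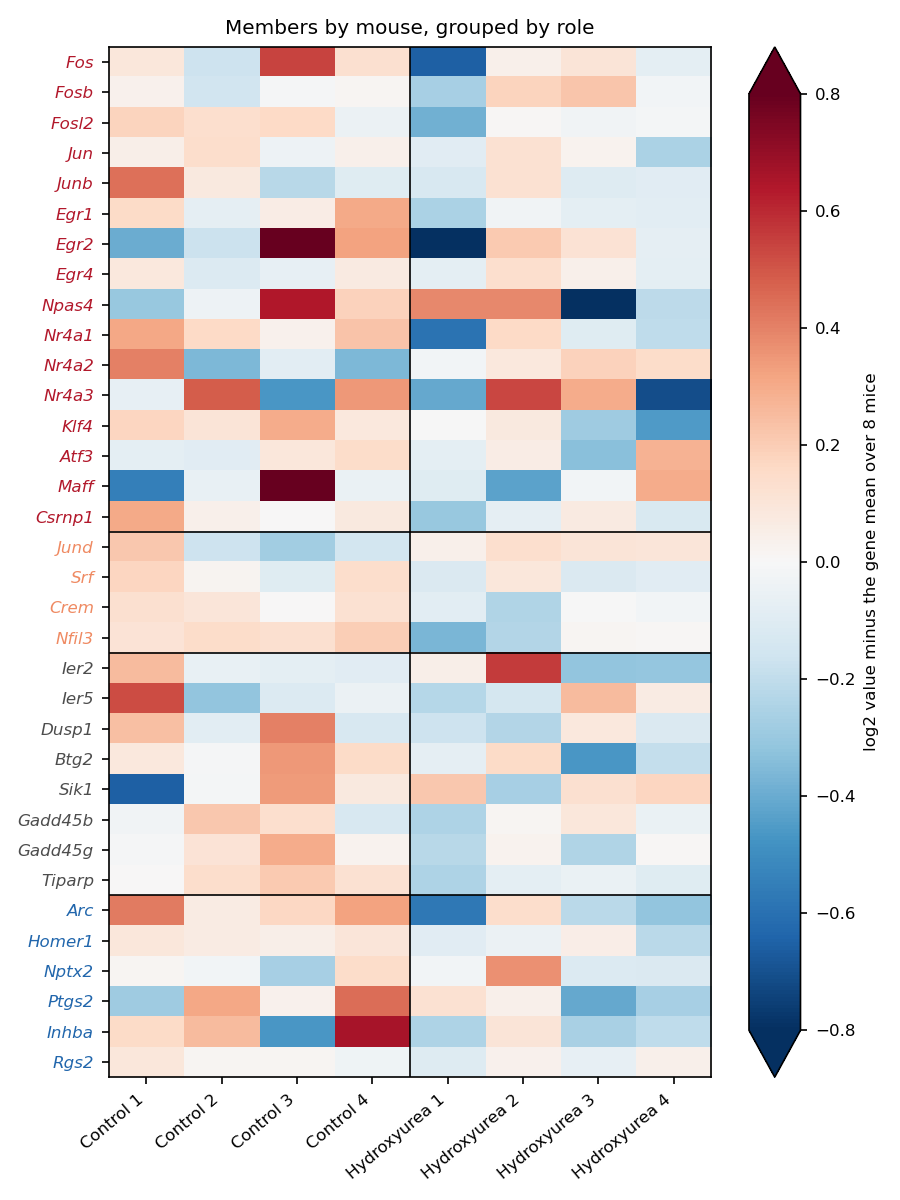
Each cell gives the log2 value of a gene in a mouse minus that gene's mean over the 8 mice (colour scale, red above and blue below, ends cover values past 0.8). Rows are grouped by role and columns by group; Hydroxyurea 1 is blue for Fos, Egr2, Nr4a1 and Arc, and Control 3 is red for Fos, Egr2, Npas4 and Maff.

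Of the 4 other transcription factors, 3 had lower values. Nfil3, a basic leucine zipper repressor, was 0.84, 0.88, 0.86 and 0.93 in Control mice and 0.37, 0.50, 0.75 and 0.74 in Hydroxyurea mice, with no overlap. Its fold change was -0.29 ± 0.10 (adjusted p = 0.475), and the 24-week Hydroxyurea mice were the lower pair. Crem, whose products include the repressor of cAMP-driven transcription ICER, was 0.14, 0.11, 0.02 and 0.13 in Control mice and -0.07, -0.22, 0.01 and -0.01 in Hydroxyurea mice, also without overlap. The fold change was -0.17 ± 0.07 (adjusted p = 0.494). Another Crem probe gave -0.30 and a dim probe for a different RefSeq transcript gave 0.98, so the mean over its 3 probes turned to 0.17. Srf gave -0.12 ± 0.08, with 0.12 from its second probe, and Jund, a constitutive JUN protein, gave 0.19 ± 0.11 (0.29 without Control 1).

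Among feedback and growth regulators, 7 of 8 tested genes had lower values, with a median of -0.15. Tiparp, a mono-ADP-ribosyltransferase, had the smallest p of the set. It was 0.91, 1.05, 1.12 and 1.03 in Control mice and 0.66, 0.83, 0.86 and 0.81 in Hydroxyurea mice. Every Hydroxyurea mouse was below every Control mouse, and the fold change was -0.24 ± 0.07 (limma adjusted p = 0.465). Dusp1, a phosphatase that turns off MAP kinases, was 0.47, 0.15, 0.63 and 0.10 in Control mice and 0.07, -0.0046, 0.31 and 0.11 in Hydroxyurea mice. The groups overlapped, and the fold change was -0.22 ± 0.13, or -0.12 without Control 3. Btg2, an antiproliferative gene, gave -0.29 ± 0.14 (-0.18 without Hydroxyurea 3), and Gadd45g, a stress-response gene of the GADD45 family, gave -0.21 ± 0.10. Sik1, a salt-inducible kinase that restrains CREB coactivators, had a fold change of 0.12 ± 0.21 (-0.07 without Control 1), and Ier2, Ier5 and Gadd45b lay between -0.10 and -0.01.

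The synaptic and signalling effectors were lower in 5 of 6 cases, with a median of -0.20. Arc, which drives removal of AMPA receptors from synapses, had the largest fold change of the set at -0.48 ± 0.15 (95% interval -0.83 to -0.13), or 0.716 times the Control level. Its values were 4.08, 3.73, 3.83 and 3.99 in Control mice and 3.098, 3.81, 3.45 and 3.35 in Hydroxyurea mice. Hydroxyurea 1, 3 and 4 were below all Control mice and Hydroxyurea 2 was inside their range. The unadjusted p was 0.0130 and the limma adjusted p was 0.471.

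Homer1, a postsynaptic scaffold, was nearly the same in every Control mouse at 2.23, 2.21, 2.19 and 2.24. It was 2.05, 2.09, 2.20 and 1.93 in Hydroxyurea mice, where Hydroxyurea 3 reached the Control values. The fold change was -0.15 ± 0.07 (adjusted p = 0.517). Its 5 probes, on 2 RefSeq transcripts, gave -0.15, 0.11, -0.02, -0.23 and -0.0024 and so disagreed in sign. Which of them report the short activity-induced Homer1a form is not given in the files.

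Ptgs2, the inducible cyclooxygenase, was -0.49, 0.10, -0.17 and 0.24 in Control mice and -0.08, -0.16, -0.62 and -0.47 in Hydroxyurea mice. The lowest Control and the higher Hydroxyurea mice crossed over, with a fold change of -0.25 ± 0.18, or -0.15 without Control 4, -0.16 without Hydroxyurea 3 and -0.39 without Control 1. Inhba, a subunit of activin, was -0.38, -0.29, -1.003 and 0.12 in Control mice and -0.78, -0.43, -0.79 and -0.74 in Hydroxyurea mice. Control 3 was lowest and Control 4 highest of all mice, so the Hydroxyurea mice lay within the Control range and the fold change was -0.30 ± 0.22, or -0.50 without Control 3 and -0.13 without Control 4. Nptx2, a secreted pentraxin that clusters AMPA receptors, was -1.25, -1.29, -1.54 and -1.12 in Control mice and -1.29, -0.90, -1.38 and -1.38 in Hydroxyurea mice. The groups overlapped, with a fold change of 0.06 ± 0.13 (95% interval -0.24 to 0.37) and -0.15 from its other probe. Rgs2, a regulator of G-protein signalling, had the smallest within-group SD of the set (0.06) and a fold change of -0.05 ± 0.06. These are from the brighter of its 2 probes, and its other probe gave -0.20.

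Fast transcription factors and effectors had similar differences between groups. The score of a role is the mean over its tested genes of the log2 value minus each gene's mean over the 8 mice. For fast transcription factors it was 0.05, -0.01, 0.17 and 0.09 in Control mice and -0.24, 0.10, -0.06 and -0.10 in Hydroxyurea mice. For effectors it was 0.08, 0.12, -0.08 and 0.27 in Control mice and -0.15, 0.11, -0.17 and -0.18 in Hydroxyurea mice. Both scores put Hydroxyurea 2 among the Control mice, and they parted in Control 3, which was highest for transcription factors and lowest of the Control mice for effectors. The groups differed by -0.15 for transcription factors and by -0.19 for effectors, a gap of 0.04 between roles against a pooled SD of 0.149 between mice. That gap ran from -0.01 to 0.13 when single mice were left out and had no test.

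Markers of dentate granule cells moved alongside the effectors. Their score was -0.03, 0.23, -0.24 and 0.38 in Control mice and -0.12, 0.17, -0.11 and -0.27 in Hydroxyurea mice, so Control 4, Control 2 and Hydroxyurea 2 were high in it as in the effector score. Of 10 dentate markers, 8 had lower values in Hydroxyurea mice (median -0.20), led by Trpc6 at -0.39, and the groups overlapped. Thalamus markers were higher in 7 of 7 tested (median 0.29), with scores from -0.36 to 0.08 in Control mice and from -0.19 to 0.81 in Hydroxyurea mice. Choroid plexus markers were higher in 14 of 14 (median 1.30), with overlapping scores from -1.85 to 0.75 and from -1.07 to 2.53. Striatum markers were the list whose scores separated the groups, from -0.19 to 0.01 in Control mice and from 0.05 to 0.15 in Hydroxyurea mice, with 6 of 8 higher (median 0.21). CA1 markers were lower in 3 of 7 (median 0.02) and CA3 markers in 6 of 6 (median -0.09), with overlapping scores. Scores of endothelial, microglial, astrocyte and oligodendrocyte markers overlapped as well, with medians from -0.04 to 0.05. General neuron markers ranged from -0.19 to 0.06 and from -0.07 to 0.09. The part of these marker lists in the results was not tested.

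**Figure D3:**
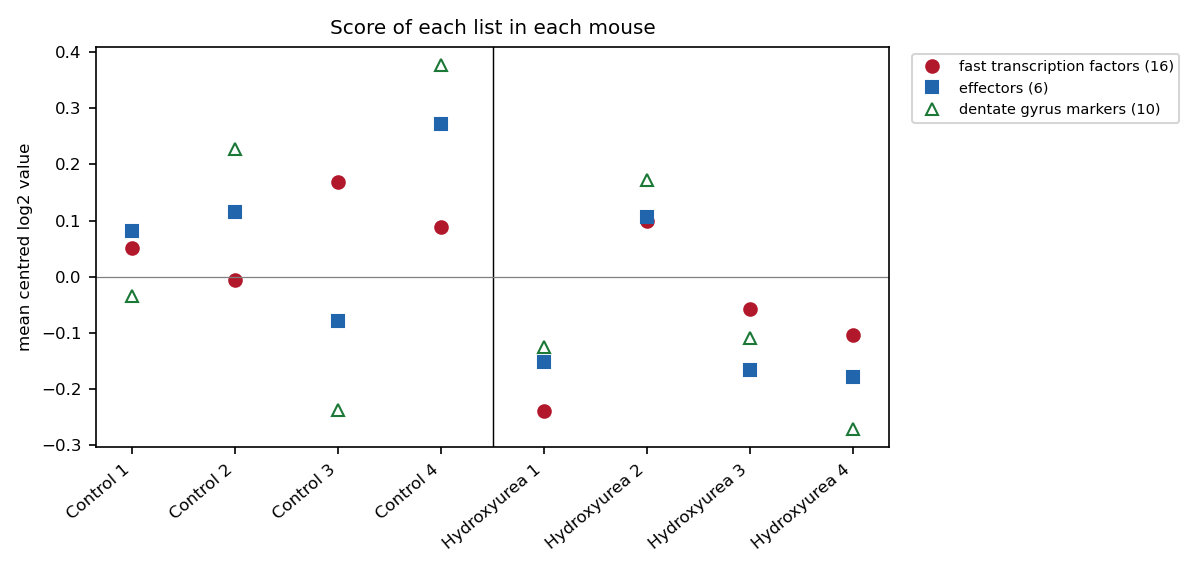
Mean centred log2 value (y axis) of 16 fast transcription factors, 6 effectors and 10 dentate gyrus markers in each mouse (x axis, Control left and Hydroxyurea right of the line). Hydroxyurea 2 is above 0 for all 3 scores, and Control 3 has the highest transcription factor score and a dentate score of -0.24.

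One mouse was low for much of the set. Hydroxyurea 1 had the lowest value of the 8 mice in 13 of 34 genes (38.2%), against 7.89% of all genes tested, and the highest in 0. Control 1 was highest in 11 (32.4% against 20.7% of all genes) and Control 3 in 10 (29.4% against 17.7%). Without Hydroxyurea 1, 27 of 34 genes remained lower, against 51.3% of all genes, with a median of -0.12. In that fit, 4 in place of 7 were lower at an unadjusted p under 0.05, against 6.02% of all genes. Without Control 1 and Hydroxyurea 2, the arrays of uneven spots and of low signal, 29 of 34 were lower, against 51.6% of all genes. The median was -0.15, and 7 were lower at an unadjusted p under 0.05, while the share of all genes rose to 8.53%.

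Arc had the highest median correlation with the rest of the set from mouse to mouse. Pearson's r of Arc with each of the 33 other tested members had a median of 0.53 and was positive for 29, against 50.8% of all genes. It was over 0.7 for 6 of 33 (18.2%), against 3.32% of all genes. By that count Fosl2, read by the brighter of its 2 probes, came before Arc, with 9 members over 0.7, against 1.53% of all genes. The other Fosl2 probe was dim and differed in sign, with a fold change of 0.07. It was highest in Hydroxyurea 2 (-3.97), and its r with the members was not computed on its own. For Fos the median was 0.31, with 26 of 33 positive (49.4% of all genes) and 3 over 0.7 (9.09% against 1.5%). A high median r with Arc was not particular to the set. The 10 dentate gyrus markers had a median of 0.56 with Arc and 2 over 0.7 (Pdzd2 and Trpc6), and a median of -0.01 with Fos. Thalamus and choroid plexus markers had medians of -0.20 and -0.24 with Arc. The part of dentate content in the r values of Arc was not tested. The mice of both groups enter these values, so a shared difference between groups adds to r. Over the 16584 genes with a value in every mouse, exact two-sided permutation tests with Benjamini-Hochberg adjustment called 0 genes for either anchor, with 874 for Arc and 372 for Fos at an unadjusted p under 0.05. Of the 65 Fos and Arc pairs in the set, 2 with Fos and 6 with Arc had an unadjusted permutation p under 0.05.

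The closest partner of Arc was Nr4a1, with r = 0.957 and Spearman's rho = 0.929 (exact permutation p = 0.000273, adjusted over all genes 0.823, n = 8). No other gene of the 16584 had a higher r with Arc. After each group was centred on its own mean r was 0.932, within the Control group 0.760 and within the Hydroxyurea group 0.975. Without Hydroxyurea 1 and 4, the mice farthest from the median of Arc, r was 0.903. Arc and Egr1 had r = 0.870 and rho = 0.976 (exact permutation p = 0.0037 for r, adjusted 0.874), 0.728 within groups and 0.786 without the same mice. Srf, by the brighter of its 2 probes, followed Arc at r = 0.826 (0.771 within groups and 0.817 without those mice). The other Srf probe was highest in Hydroxyurea 2 and 3 (0.27 and 0.26) and was not set against Arc on its own. For Csrnp1, a nuclear factor of the CSRNP family, r of 0.817 dropped to 0.470 without the 2 mice, and for Fosl2, an AP-1 member, 0.767 dropped to 0.374. Tiparp had 0.719 over all mice, 0.257 without Hydroxyurea 1 and 4, and 0.215 after each group was centred. That last value joins opposite signs, -0.757 within the Control group and 0.740 within the Hydroxyurea group. Each of these rests on n = 4 mice, and their difference was not tested.

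Fos followed Egr2 most closely of the set, at r = 0.904 and rho = 0.810 (exact permutation p = 0.00747, adjusted over all genes 0.9998, n = 8). This relation rested on its extreme mice: r was 0.394 without Hydroxyurea 1 and Control 3. Leaving out Control 1 alone gave 0.994. The same 2 mice carried Fos with Fosl2 (0.770, and -0.33 without them) and Fos with Tiparp (0.757, and -0.14 without them). Fos and Arc had r = 0.677, or 0.404 without the extreme mice. Npas4 and Junb had almost no linear relation to Fos, at 0.02 and -0.04. For Npas4, Hydroxyurea 1 was high where Fos was at its lowest.

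**Figure D4:**
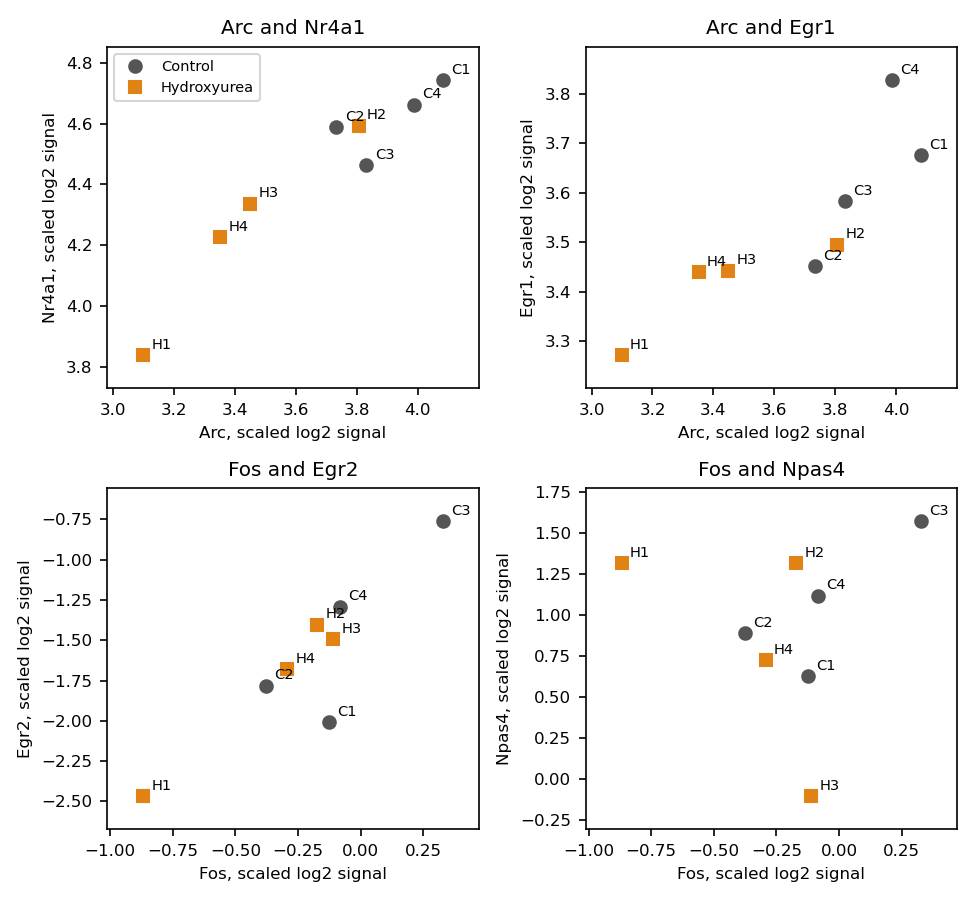
Scaled log2 signal of pairs of genes, 1 point per mouse (C, Control; H, Hydroxyurea; numbers name the mice). Nr4a1 and Egr1 climb with Arc across both groups (r = 0.957 and 0.870), Egr2 climbs with Fos mainly through H1 and C3 (r = 0.904), and Npas4 does not follow Fos (r = 0.02).

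Over all 561 pairs within the set, the median r was 0.231, and 0.132 after centring each group, against 0.005 over all pairs of tested genes. An r over 0.7 was found for 41 pairs (7.31%), against 5.71% of all gene pairs. Another 8 pairs were below -0.7, and the share of all gene pairs below -0.7 was not counted. Pairs of fast transcription factors had a median of 0.269 (120 pairs), pairs of effectors 0.291 (15 pairs) and pairs across the roles 0.277 (96 pairs). The medians within and across roles were close; they share genes and arrays and have no test. Genes ranked by their median r with the rest ran from Arc (0.53), Nr4a1 (0.49), Csrnp1 (0.45) and Egr1 (0.40) down to Maff (-0.13), Nr4a2 (-0.16), Jund (-0.22) and Sik1 (-0.33).

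Some of the strongest relations did not involve Arc or Fos. Junb and Sik1 ran opposite ways at r = -0.983, which was -0.945 without Control 1, highest for Junb and lowest for Sik1. Nr4a2, the nuclear receptor needed for dopamine neurons, ran against Ptgs2 at -0.903 and with Jund at 0.824, by the brighter of its 2 probes. Its other probe was high in Control 3 (2.30), where Jund was lowest (4.12). These relations were not computed for that probe on its own. Jun and Nr4a3 had 0.909, although Nr4a3 was dim, and Npas4 and Btg2 had 0.846. These pairs were picked from the 561 for their size and are a description with no test.

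**Figure D5:**
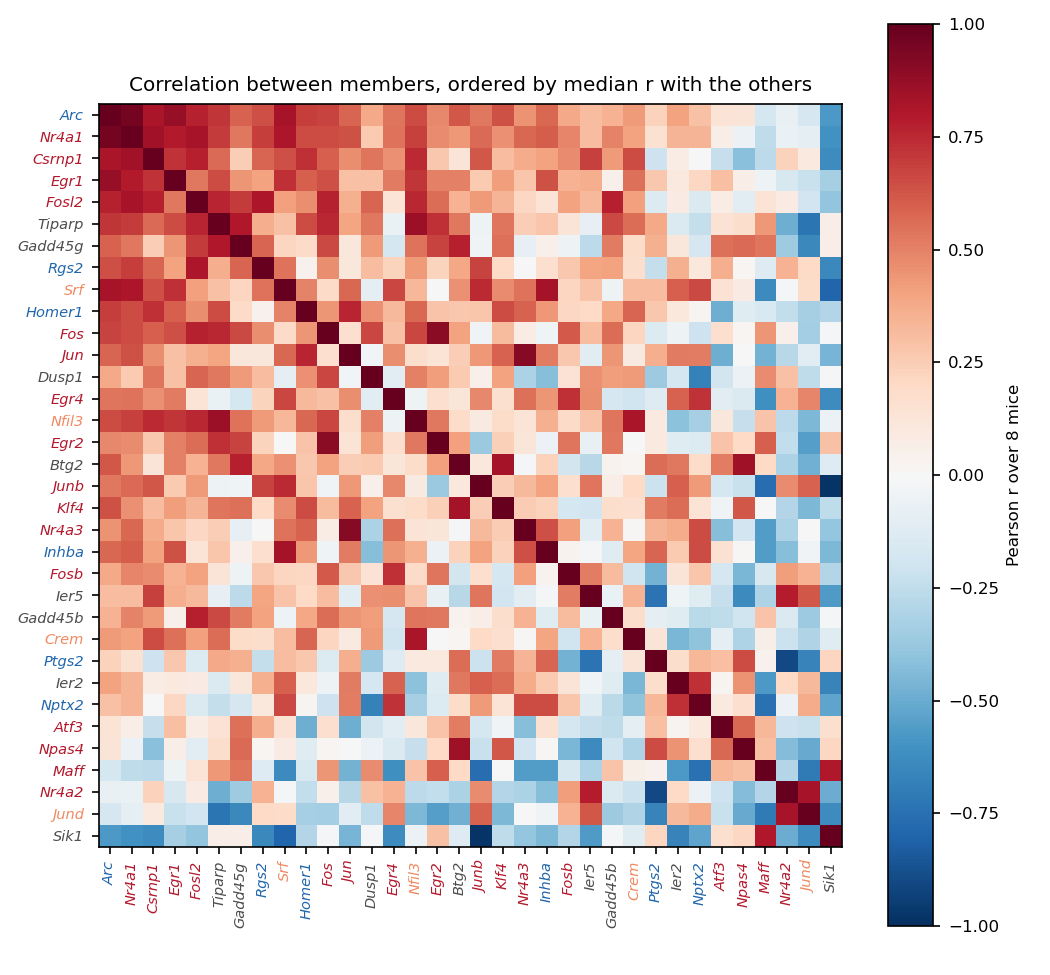
Pearson's r over 8 mice (colour scale) between every pair of the 34 tested genes, ordered by median r with the others and coloured by role as in the plot of fold changes. Red fills the upper left block led by Arc and Nr4a1, and the blue rows at the foot are Maff, Nr4a2, Jund and Sik1; Junb and Sik1 have r = -0.983.

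Other genes of the pathway were taken from lists of known activity-regulated and upstream genes. These lists too were chosen with earlier results of these data known, and counts over them have no test. Of 44 tested further activity-regulated genes, 36 had lower values (81.8% against 51.2% of all genes), with a median of -0.11. At an unadjusted p under 0.05, 6 of 44 were lower, against 6.34% of all genes, and 0 were higher, against 3.53%. Errfi1, a feedback inhibitor of EGF receptors, had -0.33 ± 0.09, Trib1, a pseudokinase, -0.29 ± 0.09, Dusp6, an ERK phosphatase, -0.30 ± 0.09, and Cebpd, a leucine zipper factor, -0.36 ± 0.11. Hydroxyurea mice lay wholly below Control mice for 4 genes, Errfi1, Trib1, Dusp6 and Ifrd1 (-0.19), against 5.1% of all genes. They lay wholly above for 1, Ppp1r15a (0.13), a stress-induced phosphatase subunit, against 2.39%. None of the 44 had an adjusted p below 0.452. Ifrd1 and Ppp1r15a were named after their values were seen. Trib1 was the sixth closest gene to Arc across mice, at r = 0.919.

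The upstream proteins that switch the set on were split: 16 of 28 had lower values, with a median of -0.0046. At an unadjusted p under 0.05, 2 of 28 were lower, against 6.34% of all genes, and 1 was higher, against 3.53%, so the list as a whole was near the background. Creb1, which encodes CREB, was -0.92, -0.89, -0.87 and -0.86 in Control mice and -1.11, -1.17, -1.02 and -1.12 in Hydroxyurea mice. All Hydroxyurea mice were below all Control mice, as in 5.1% of all genes, with a fold change of -0.22 ± 0.06 (adjusted p = 0.452). Mrtfb, an SRF coactivator, had -0.19 ± 0.07 and its relative Mrtfa -0.13 ± 0.07, and Mef2c, a factor that limits synapse number, had 0.24 ± 0.10. Of the 28, 2 had r over 0.7 with Arc, Mrtfb and Mrtfa, against 3.32% of all genes. The median r of the list with Arc was 0.17, and the lowest was -0.62.

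Within the Hydroxyurea group, mice of 24 weeks were compared with mice of 19 weeks, n = 2 each. Values were lower at 24 weeks in 18 genes and higher in 16, and limma called 0 at an adjusted p of 0.05, as it called 0% of all genes. At an unadjusted p under 0.05, 4 were higher at 24 weeks, against 1.26% of all genes: Npas4 (1.01), Ier2 (0.61), Klf4 (0.41) and Btg2 (0.37). Nfil3 was lower (-0.31), against 1.43%. The 24-week mice also began treatment at another age, which cannot be told apart from age here. Setting only the 19-week Hydroxyurea mice against Control, 28 of 34 genes were lower, against 49.8% of all genes, with a median of -0.13.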

How the data were processed

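RNA of 8 hippocampi was measured on 1 array per mouse. Per the file headers, Feature Extraction 12.0.3.1 read the scans into processed signal intensities with the local background removed, for a design on mm9; no coordinates of that build are used. The value table the authors deposited holds a z score per feature (62976 features), which a recomputed z score matched within 0.005, with column medians from -0.21 to -0.17; it served as an alternative. From the deposited intensities, log2 minus the 75th percentile of each array was computed here. Spots of a probe were averaged without outlier spots, RefSeq accessions named 28331 of 55681 probes, and the brightest probe stood for a gene. Tested genes cleared background on 4 or more of 8 arrays and had a value on 6 or more. No spot was saturated. The number of arrays limits the precision. A limma p-value sets a difference of group means against the spread between these mice. A permutation p-value sets an r against its values over all orders of the mice.

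The group comparison was a two-sided limma fit (version 3.58.1, lmFit and eBayes, R 4.3.3) to all 8 arrays with no covariate. In simulated data for this comparison (16618 genes) limma called 53.7% of genes changed 1.5-fold and 77.6% of those changed 2-fold. The noise was drawn separately for each gene, with no effect shared by an array. Smaller changes were not simulated, and all members fall there, with Arc the largest at 0.716 times the Control level. Age used a fit with 3 group means. Correlations used all 40320 orders of 8 mice; the adjustment planned over the 65 pairs was replaced by one over all genes, since members and lists were chosen with earlier results of these data known. Values of every mouse are given for 10 set genes, the 8 members of smallest p and the 5 of largest within-group SD; other lists give up to 4 genes by smallest p. Alternatives were median and quantile scaling, normexp (on the median spot signal), the authors' z scores, filters and probe rules, the replicate number as a block, 19-week mice only and leaving out arrays. The labels do not say that replicate numbers pair mice. Correlations of same-number mice between groups were 0.05, 0.20, -0.21 and -0.06, which with 4 mice per group cannot decide it.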

Additional observations from a re-analysis of the deposited data

Results flagged for a closer look

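Of 68 sets of 4 mice (34 genes in each group), 5 had 1 mouse whose gap to its nearest neighbour took up most of the group's range, at a critical level of Dixon's test that chance passes in a small share of sets. In the Hydroxyurea group, mouse 1 stood apart for Fosl2 at 1.29, and mouse 2 stood apart for Junb at -3.12, for Srf at 2.49 and for Inhba at -0.43. In the Control group, mouse 1 stood apart for Ier2 at -3.79. Control 1 and Hydroxyurea 2 are the arrays of uneven spots and of low signal. The part of array quality in these values was not tested.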

How the results depend on the processing

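Over 18 alternatives, 0 genes were called in every one, and no correlation with Fos or Arc passed the adjustment over all genes. In these, 26 to 31 of the members were lower, while the share of all genes lower ran from 45.1% to 70.3%. Of 34 fold changes, 20 kept their sign in every alternative. Median centring turned Fosb to -0.026, Egr4 to -0.072 and Nptx2 to -0.019. The authors' z scores turned Jun to 0.0025 and Rgs2 to 0.018 z units. The mean of probes turned Crem to 0.17 and Nptx2 to -0.043. With 19-week mice only, Egr4 was -0.016, Maff 0.073, Ier5 0.15 and Nptx2 -0.079. Without Control 1 and Hydroxyurea 2, chosen after seeing the data, Egr4 was -0.0049, Ier5 0.19 and Nptx2 -0.034. Leaving out single mice gave ranges across 0 for Atf3 (-0.14 to 0.069), Egr4 (-0.034 to 0.039), Fosb (-0.0084 to 0.15), Ier2 (-0.20 to 0.091), Ier5 (-0.13 to 0.14), Junb (-0.19 to 0.030), Maff (-0.33 to 0.16), Npas4 (-0.41 to 0.067), Nptx2 (-0.049 to 0.12), Nr4a3 (-0.35 to 0.065) and Sik1 (-0.073 to 0.26). For the other alternatives the cause was not tested. Members lower at an unadjusted p under 0.05 numbered 7 (6.34% of all genes), and 4 without Hydroxyurea 1 (6.02%), without Hydroxyurea 4 (4.74%), with the authors' table (6.54%) and with the replicate block (4.54%). With median centring they numbered 13, and the share of all genes rose to 10.8%. With the replicate block 28 members were lower, as without it, against 51.2% of all genes, and 0 genes were called. What a shared replicate number means is not given in the labels. Genes at an unadjusted p under 0.05 numbered 1640, and 2524 without Control 1, 2482 with no filter on dim probes and 1104 with 19-week mice only. The r of Arc with Nr4a1 ran from 0.927 to 0.968 over its alternatives (adjusted p 0.412 to 1.0), that of Arc with Egr1 from 0.783 to 0.930, and that of Fos with Egr2 from 0.816 to 0.996. A block for correlations and a role gap in z scores were not run.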
